A study of Mus musculus with 6 samples.

Results

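The voltage-gated sodium, calcium and potassium channel genes, together with their auxiliary subunits, the other potassium channels named Kcn and the TRP (transient receptor potential) channels, were examined in mouse lung after exposure to PM. Members were taken by symbol: Scn followed by digits and a or b, Cacn, Kcn, or Trp followed by a, c, m or v and a digit. A gene also needed at least 10 counts summed over the distinct libraries. Of 23238 symbols 161 matched, and 93 reached that total. The rule also admits genes that are not voltage-gated (inward rectifier and two-pore-domain potassium channels) and genes that encode no channel, among them Trpc4ap, a protein that binds TRPC channels, and Kcnq1ot1, a non-coding RNA. Just inside the limit stood Kcnmb3 with 10 counts and Kcnj16 and Kcna5 with 11 each, and just outside it Kcnn2 with 9 and Kcnt2 and Kcnu1 with 8 each.

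Lung tissue came from mice of wild-type (WT) genotype treated with PM, or with phosphate-buffered saline (PBS) as the vehicle, by a route the labels abbreviate i.t., and the series title calls the exposure chronic. The labels spell out neither PM nor its dose, its duration, or the strain, sex and age of the animals. Each group has 3 samples, but the tables of PBS replicate 1 and PBS replicate 2 hold equal values in all 23282 entries, which is less than sampling noise would give. The header of the latter names the library of the former, and the pair was counted as 1 sample. The comparison was therefore of 2 PBS with 3 PM libraries, and its p-values cover the spread among these libraries alone, which may be technical, because the labels do not say that they came from separate animals. Distinct libraries held 7410200 to 8827202 counts, of which 0.151% to 0.177% fell on the 93 genes. A count of 0 in 1 library corresponds to at most 0.340 to 0.405 CPM, depending on the library (CPM are counts scaled to the library's total), a limit that covers counting error only. Levels below are CPM scaled by the trimmed mean of M values (TMM). In bulk tissue, fewer cells of a type and less RNA per cell cannot be told apart.

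Voltage-gated channels open when the membrane depolarises: sodium channels carry the fast upstroke of an action potential, calcium channels admit the calcium that triggers contraction and secretion, and potassium channels repolarise the cell. Inward rectifier and two-pore-domain potassium channels set the resting potential, and TRP channels are cation channels gated by lipids, heat, stretch or ligands. In the lung such channels are best known from airway and vascular smooth muscle, from the cardiac muscle sleeves of the pulmonary veins and from sensory nerves, and non-excitable epithelial, endothelial and immune cells use many of them as well.

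In PM lung 1 channel gene fell and none rose by the test. Of the 93 genes, 69 had enough counts for the test. Scn3a fell (1 of 69, 1.45%, where 0.0854% of all 14057 tested genes were called lower). None of the 69 was called higher, where 0.142% of all tested genes were (two-sided quasi-likelihood test in edgeR, with p adjusted by Benjamini-Hochberg and required to be below 0.05). In either direction 0.228% of all tested genes were called. DESeq2 called 1 channel gene higher, Kcnj15, and 2 lower, Scn3a and Kcna2, of 127 with a value. In all it called 360 of 18027 genes. At an unadjusted p below 0.05 by edgeR, 4 channel genes were higher (5.80%, against 7.26% of all tested genes) and 7 were lower (10.1%, against 6.05%). All PM libraries lay above both PBS libraries for 12 of the 69 (17.4%, against 15.5% of all tested genes) and below them for 13 (18.8%, against 16.1%). The median log2 fold, PM minus PBS, was -0.03 over the 69 channel genes and 0.01 over all tested genes, and 34 of the 69 folds were above 0 (49.3%, against 51.1% of all tested genes). Channel genes were sparse, with a median mean level of 6.46 CPM against 19.7 CPM over all tested genes, and their median standard error was 0.36 against 0.21 on the log2 scale. The 24 members that were not tested had 10 to 52 counts in all.

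**Figure D1:**
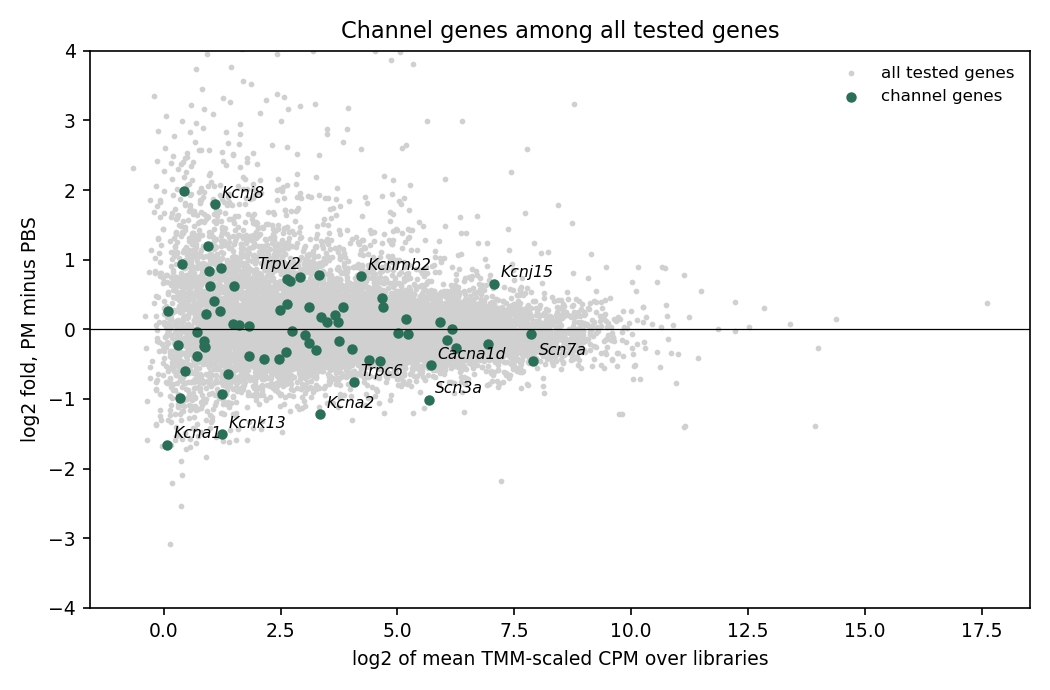
The log2 fold (PM minus PBS) of each tested gene is plotted against the log2 of its mean TMM-scaled CPM over the 5 distinct libraries, with channel genes in green and the 11 with an unadjusted p below 0.05 named. Channel genes spread to both sides of 0, and 34 other genes lie beyond the limit of 4 on the vertical axis.

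Among the pore-forming sodium channel subunits, the single gene past the test, Scn3a, stood beside the most abundant channel gene of the lung, Scn7a. Scn3a encodes a sodium channel best known from the developing brain and from injured sensory neurons. It was at 75.9 and 69.9 CPM in PBS replicates 1 and 3 and at 42.9, 28.5 and 36.8 CPM in the PM libraries 1 to 3. Both PBS libraries lay well above the highest PM library, and PM replicate 2 was the lowest. The means were 72.9 ± 4.25 CPM in PBS and 36.1 ± 7.21 CPM in PM (SD, n = 2 and 3), a level 49.6% of that in PBS by the fitted fold. The log2 fold was -1.01 ± 0.17 SE, at a Benjamini-Hochberg adjusted p of 0.0379 (edgeR). That call did not hold without PM replicate 1 (adjusted p = 0.0726). Nor did it hold without PBS replicate 1 or 3, where a lone PBS library leaves little power for any gene. The log2 fold was -0.95 and -1.07 there. The call was also missed by limma-voom (adjusted p = 0.0864) and by edgeR without robust estimation (0.0622). It held in 12 of 17 alternatives, and the fold stayed between -1.15 and -0.87 under every alternative run. Scn3a lies on the minus strand of chromosome 2 at 65457118 to 65567627 in GRCm38, the assembly that mm10 names, and none of its exons overlaps another annotated gene.

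Scn7a encodes an atypical channel that senses extracellular sodium rather than opening with voltage. Per kilobase of exon it ranked first of the 93 genes, with a mean of 38.8 CPM per kilobase in PBS and 28.3 in PM. It was at 270.02 and 299 CPM in PBS and at 237, 203 and 181 CPM in the PM libraries 1 to 3. The groups did not overlap, but the log2 fold of -0.46 ± 0.13 SE did not pass edgeR's test (Benjamini-Hochberg adjusted p = 0.149). Scn7a lies on the same strand of chromosome 2 as Scn3a, at 66673425 to 66784914. Of the other sodium channel pore genes, Scn1a had 2 counts in all 5 libraries together and Scn9a had 0, which over 5 libraries allows up to 0.0745 CPM. Scn2a1, also a pore gene, had 95 counts in all, but its symbol does not match the rule and it is no member. Scn10a, a channel of pain-sensing neurons, had 0 to 11 counts per library and was not tested.

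Sodium channel beta subunits, which modulate gating and adhesion, gave no call among 3 tested of 4. Scn3b was at 19.9 and 29.9 CPM in PBS and at 17.9, 21.2 and 15.9 CPM in PM, with overlapping groups and a Benjamini-Hochberg adjusted p of 0.413 (edgeR). Scn2b had a log2 fold of -0.16 ± 0.66 SE.

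**Figure D2:**
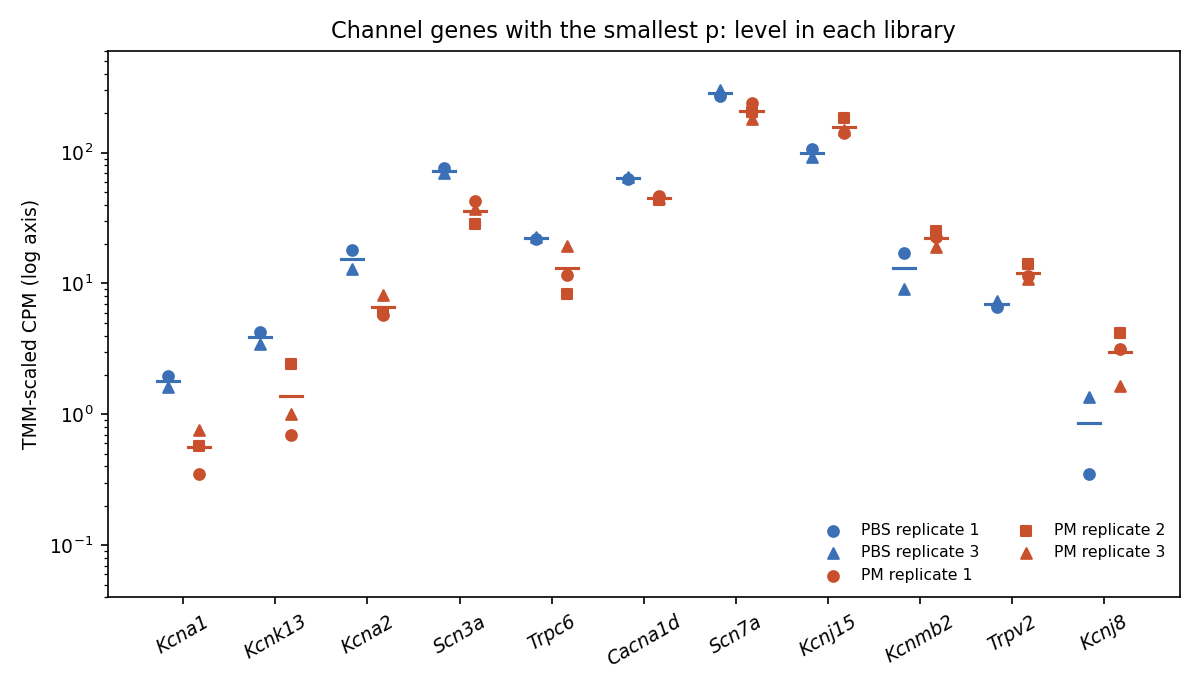
TMM-scaled CPM (log axis) of the 11 channel genes with an unadjusted p below 0.05 and no overlap between groups is plotted for each library, with PBS in blue, PM in red, symbols for the replicate number and bars at group means. The genes run from the lowest log2 fold, Kcna1 at the left, to the highest, Kcnj8 at the right, and Scn7a and Kcnj15 have the highest levels.

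Of the pore-forming calcium channel subunits (8 members, 4 tested), none passed the test, and Cacna1d had the smallest p. It encodes an L-type channel that opens at comparatively negative voltages and is known from pacemaking and endocrine cells. Cacna1d was at 62.7 and 65.4 CPM in PBS and at 46.7, 43.3 and 44.9 CPM in the PM libraries 1 to 3. The spread within each group was small, with means of 64.1 ± 1.94 and 45.0 ± 1.74 CPM (SD, n = 2 and 3), and the gap between groups was many times that spread. The log2 fold was -0.51 ± 0.13 SE, and edgeR gave a Benjamini-Hochberg adjusted p of 0.110. Exons of Cacna1d overlap those of Chdh on the opposite strand, and without known strand use reads of both cannot be told apart. Cacna1c, the L-type channel of smooth and cardiac muscle, was at 14.5 and 22.2 CPM in PBS and at 16.7, 16.2 and 12.2 CPM in PM (log2 fold -0.29 ± 0.24 SE). Its groups overlapped. Cacna1a, the P/Q-type channel of nerve terminals, had a log2 fold of 0.31 ± 0.32 SE and Cacna1e, the R-type channel, of -0.99 ± 0.83 SE, the latter on 1 to 19 counts per library. The T-type gene Cacna1h had 3 counts in all 5 libraries together, under the limit of 10.

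Auxiliary calcium channel subunits, which carry the pore to the membrane and tune it, gave no call. The alpha-2/delta subunit Cacna2d1, the target of gabapentin, was at 29.2 and 38.8 CPM in PBS and at 40.0, 34.3 and 38.1 CPM in PM, with a log2 fold of 0.14 ± 0.17 SE. All 4 beta subunit genes had positive folds, from 0.11 for Cacnb2 to 0.84 for Cacnb4, where 51.1% of all tested genes were above 0, and none passed the test. Cacnb3 stood highest of them per kilobase, at 12.1 and 7.16 CPM in PBS and at 9.23, 13.8 and 9.58 CPM in PM. Its sign depended on single libraries: the log2 fold of 0.17 became -0.16 without PBS replicate 3 and -0.03 without PM replicate 2. None of the 8 gamma-family genes reached 10 counts.

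Voltage-gated potassium channel pore subunits (19 members, 12 tested) gave no call; their median log2 fold was -0.28, and 4 of the 12 folds were above 0, where 51.1% of all tested genes were. Kcna2, a delayed rectifier of axons and of vascular smooth muscle, had the smallest p. It was at 18.1 and 12.8 CPM in PBS and at 5.73, 6.02 and 8.20 CPM in the PM libraries 1 to 3. Every PM library lay below both PBS libraries. Its fold, -1.22 ± 0.27 SE on the log2 scale, was larger in size than that of Scn3a, but it rested on fewer counts and came with a Benjamini-Hochberg adjusted p of 0.0769 (edgeR). DESeq2 called 360 of 18027 genes and edgeR without PM replicate 3 called 427 of 13949, against 32 of 14057 with all 5 libraries. Kcna2 passed in both settings (adjusted p = 0.0262 by DESeq2 and 0.0286 by edgeR), and in 5 of 17 alternatives in all. Its relative Kcna1 was at 1.97 and 1.61 CPM in PBS and at 0.351, 0.573 and 0.757 CPM in PM. These are 17 and 13 counts against 3, 4 and 6, and the log2 fold of -1.66 ± 0.71 SE came with a Benjamini-Hochberg adjusted p of 0.336 (edgeR). Kcna3, the channel of T cells and microglia, had 0 to 19 counts per library and overlapping groups.

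Kcnq1, a channel of epithelia and heart, was at 23.3 and 21.7 CPM in PBS and at 27.5, 26.1 and 30.4 CPM in PM. The groups did not overlap, and the log2 fold was 0.31 ± 0.17 SE (edgeR, Benjamini-Hochberg adjusted p = 0.458). The non-coding transcript Kcnq1ot1 runs through Kcnq1 on the opposite strand, so their reads cannot be told apart where strand use is unknown. Kcnq1ot1 had counts of 1584 to 2085 per library over 93092 bases of exon, and its log2 fold was -0.06 ± 0.11 SE.

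**Figure D3:**
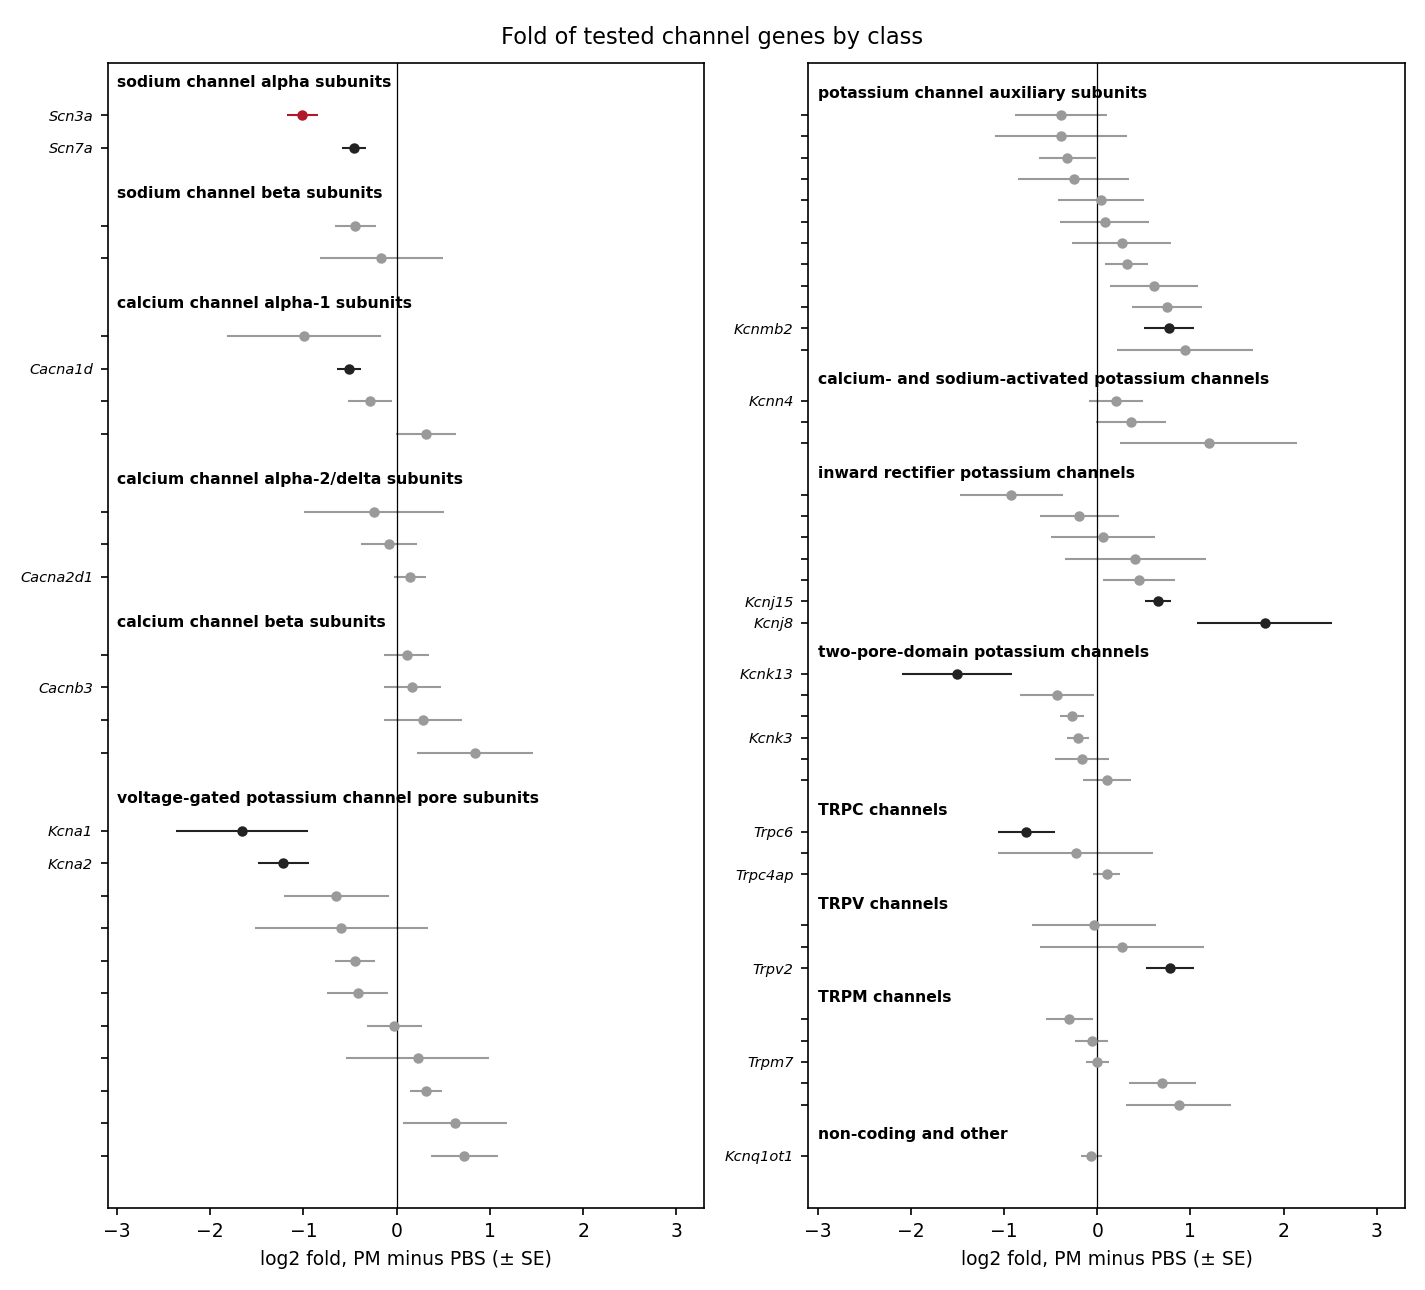
The log2 fold of 66 of the 69 tested genes is plotted with its standard error, grouped by channel class, in red for an adjusted p below 0.05, black for an unadjusted p below 0.05 and grey for the rest, with names at the 18 genes chosen by rule. Scn3a alone is red, and the folds of most classes lie on both sides of 0.

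Inward rectifier potassium channels (11 members, 7 tested) had the highest median log2 fold of the classes, 0.41, and no call. Kcnj15, a channel of epithelia, made up 73.9% of the summed level of the class. It was at 107 and 92.1 CPM in PBS and at 142, 182 and 148 CPM in the PM libraries 1 to 3, and again the groups did not overlap. The means were 99.8 ± 10.8 and 157 ± 21.8 CPM (SD, n = 2 and 3). The fitted log2 fold was 0.66 ± 0.14 SE, at a Benjamini-Hochberg adjusted p of 0.0662 (edgeR). It passed by DESeq2 (adjusted p = 0.00504), and by edgeR on all 6 tables as deposited (0.0281) and without PM replicate 3 (0.0275). On all 6 tables the repeated PBS table counts as a sample of its own. In that order, these settings called 360 of 18027, 635 of 13823 and 427 of 13949 genes. By edgeR with all 5 libraries 32 of 14057 were called. Over the alternatives Kcnj15 passed in 6 of 17. Exons of Kcnj15 overlap those of Gm49643, an unnamed gene model, on the opposite strand.

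Kcnj8 encodes the pore of the ATP-sensitive potassium channel of pericytes and vascular smooth muscle. It had 3 and 11 counts in PBS and 27, 29 and 13 counts in PM, or 0.348 and 1.36 CPM against 3.16, 4.16 and 1.64 CPM. The log2 fold of 1.80 ± 0.72 SE did not pass edgeR's test (Benjamini-Hochberg adjusted p = 0.308). It ran from 1.12 without PBS replicate 1 to 3.04 without PBS replicate 3. Abcc9, the regulatory subunit that pairs with it, was at 13.6 and 9.51 CPM in PBS and at 10.6, 9.32 and 17.5 CPM in PM, with a log2 fold of 0.12 ± 0.30 SE. The smooth muscle and pericyte marker list summed to 529 and 457 CPM in PBS and to 557, 600.1 and 438 CPM in PM, with overlapping groups. Members of that list had folds of both signs: Acta2, smooth muscle actin, was above PBS in every PM library (log2 fold 0.61), and Pdgfrb (-0.50), a pericyte receptor, and Des (-0.74) were below. Their part in the Kcnj8 values was not tested. Kcnj2, the classical inward rectifier of muscle, endothelium and macrophages, was at 29.4 and 12.5 CPM in PBS and at 20.6, 31.5 and 33.9 CPM in PM, again with overlap.

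Two-pore-domain potassium channels, the leak channels, included Kcnk3 and Kcnk2, which ranked 2 and 5 of the 93 genes by level per kilobase, and none of 6 tested genes passed. Of their 6 folds 1 was above 0, where 51.1% of all tested genes were, and all PM libraries lay below both PBS libraries for 4 genes, where 16.1% of all tested genes did. Kcnk3, an acid-sensitive leak channel whose loss causes a heritable form of pulmonary hypertension in people, was at 133 and 135 CPM in PBS and at 114, 128 and 106 CPM in PM. Its log2 fold was -0.21 ± 0.12 SE (edgeR, Benjamini-Hochberg adjusted p = 0.489). Kcnk2, a stretch-sensitive leak channel, was at 87.8 and 80.9 CPM in PBS and at 69.8, 63.9 and 75.9 CPM in PM (log2 fold -0.27 ± 0.13 SE, edgeR, Benjamini-Hochberg adjusted p = 0.380). Kcnk13, a leak channel of microglia, had 37 and 28 counts in PBS and 6, 17 and 8 counts in PM. Its log2 fold of -1.50 ± 0.59 SE came with a Benjamini-Hochberg adjusted p of 0.301 (edgeR).

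Among potassium channels opened by calcium, Kcnn4, the intermediate-conductance channel of lymphocytes, macrophages and epithelia, was at 12.3 and 11.1 CPM in PBS and at 16.6, 15.5 and 8.32 CPM in PM. PM replicates 1 and 2 were above both PBS libraries and PM replicate 3 below them, and the log2 fold was 0.20 ± 0.29 SE. Kcnma1, the large-conductance pore, had 13 and 5 counts in PBS and 3, 36 and 16 in PM. Kcnmb2, one of its beta subunits, was far more abundant than the pore, with a mean of 5.96 CPM per kilobase against 0.114 for Kcnma1. It was at 17.2 and 9.01 CPM in PBS and at 22.7, 25.4 and 19.0 CPM in PM, with all PM libraries above both PBS libraries. The log2 fold of 0.77 ± 0.27 SE came with a Benjamini-Hochberg adjusted p of 0.237 (edgeR), and it ranged from 0.38 without PBS replicate 3 to 1.31 without PBS replicate 1. Of the 12 tested auxiliary subunits of potassium channels, 8 had folds above 0 (against 51.1% of all tested genes) and none was called. Kcnab1 had no count in either PBS library and 3, 6 and 3 counts in PM. It therefore reached the limit on summed counts through its PM counts alone, and any member at 0 in PBS is higher in PM by that rule. Against a floor of 3 counts over the PBS group its level in PM was 2.77-fold. That ratio covers neither the counting error of the PM counts nor the spread between libraries, and the gene was not tested.

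TRP channels gave no call among 11 tested members, a number that includes Trpc4ap. Trpc6, a channel opened by diacylglycerol and known from vascular smooth muscle, was at 22.0 and 22.5 CPM in PBS and at 11.6, 8.31 and 19.4 CPM in the PM libraries 1 to 3. The PBS libraries were nearly equal, PM replicates 1 and 2 were far below them and PM replicate 3 was close to them. The log2 fold was -0.76 ± 0.30 SE (edgeR, Benjamini-Hochberg adjusted p = 0.315). Without PM replicate 3 it was -1.15 and passed (edgeR, adjusted p = 0.0275), in 1 of 17 alternatives. In that setting 427 of 13949 tested genes were called, against 32 of 14057 with all 5 libraries. Trpc4ap was at 49.0 and 65.4 CPM in PBS and at 63.5, 62.1 and 58.5 CPM in PM (log2 fold 0.10 ± 0.15 SE, and -0.09 without PBS replicate 1).

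Trpv2, a channel of macrophages and other immune cells, was at 6.61 and 7.41 CPM in PBS and at 11.3, 14.0 and 10.8 CPM in PM. All PM libraries lay above both PBS libraries, with means of 7.01 ± 0.568 and 12.1 ± 1.72 CPM (SD, n = 2 and 3). For Trpv2 the log2 fold was 0.78 ± 0.26 SE, at a Benjamini-Hochberg adjusted p of 0.207 (edgeR). On all 6 tables as deposited, where the repeated PBS table counts as a sample of its own, the adjusted p was 0.0440 (edgeR). That setting called 635 of 13823 tested genes, against 32 of 14057 with the repeated table counted once. Trpv2 passed in 1 of 17 alternatives. Marker genes of macrophages and monocytes summed to 230 and 279 CPM in PBS and to 376, 371 and 372 CPM in PM, and 5 of 8 lay above PBS in every PM library, where 15.5% of all tested genes did. None of the 8 was called, Marco and Siglecf overlapped between groups, and Csf1r had a log2 fold of -0.15. Their part in the Trpv2 values was not tested. Trpv4, an osmosensor of epithelium and endothelium, had 7 to 23 counts per library and a log2 fold of -0.03 ± 0.67 SE.

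Trpm7, a channel fused to a kinase and found in most cells, had nearly equal levels: 68.4 and 74.95 CPM in PBS and 76.1, 72.5 and 66.5 CPM in PM, with a log2 fold of 0.0008 ± 0.12 SE, whose sign turned under 7 alternatives. Trpm6, its magnesium-transporting relative, had a log2 fold of -0.06 ± 0.18 SE. Trpm2, a channel of phagocytes gated by ADP-ribose, was at 1.74 and 1.36 CPM in PBS and at 2.10, 2.29 and 4.16 CPM in PM (log2 fold 0.87 ± 0.57 SE, edgeR, Benjamini-Hochberg adjusted p = 0.541). The irritant and cold receptors of sensory nerve endings were not detectable at this depth: Trpa1 and Trpm8 had 0 counts in all 5 libraries and the heat receptor Trpv1 had 2.

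**Figure D4:**
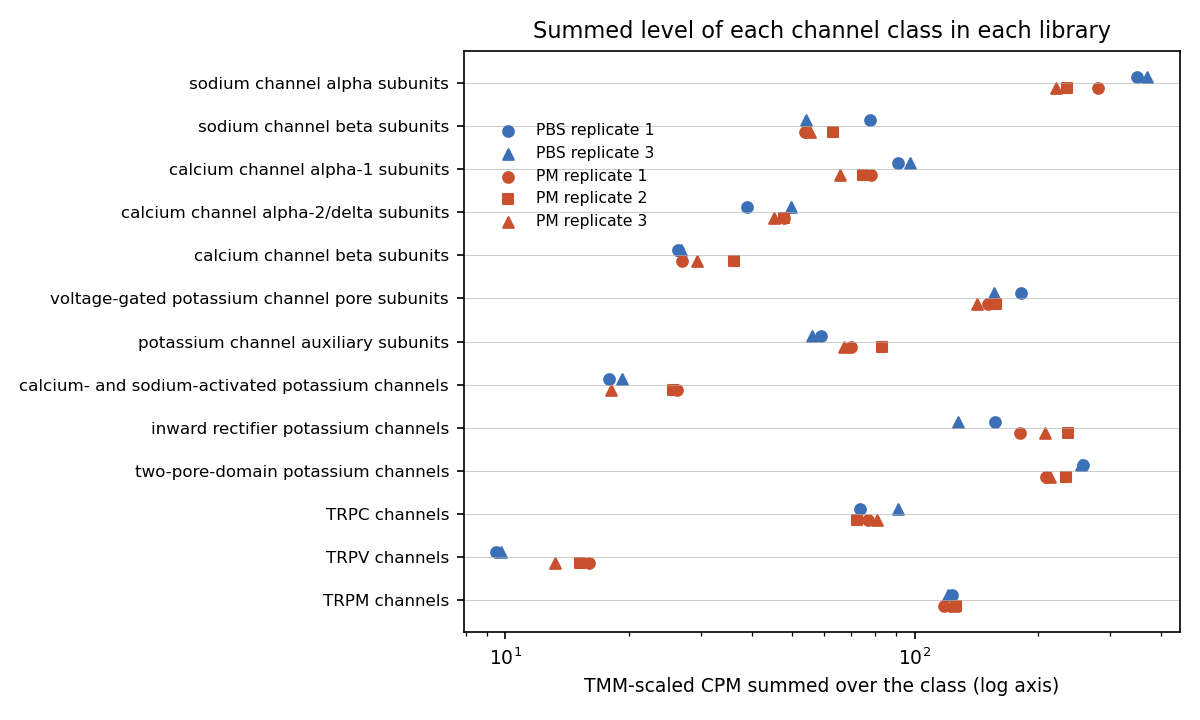
The TMM-scaled CPM summed over all members of each channel class (log axis) is plotted for each library. PM libraries lie to the left of both PBS libraries for the sodium and calcium channel pore subunits and the two-pore-domain channels, and to the right for the inward rectifiers, the potassium channel auxiliary subunits, the calcium channel beta subunits and the TRPV channels.

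Summed over the class, sodium channel pore subunits were at 348 and 369 CPM in PBS and at 281, 236 and 222 CPM in PM, of which Scn7a made up 81.9%. Inward rectifiers were at 157 and 127 CPM in PBS and at 181, 236 and 208 CPM in PM. Two-pore-domain channels were at 257 and 255 CPM in PBS and at 209, 234 and 214 CPM in PM. The most abundant gene made up 73.9% of the inward rectifier sum (Kcnj15) and 52.8% of the two-pore-domain sum (Kcnk3). Over all 93 members the sum was 1685 ± 11.5 CPM in PBS and 1571 ± 68.2 CPM in PM (SD), every PM library lying below both PBS libraries. An exact two-sided permutation of the libraries gave p = 0.2, where the smallest p possible was 0.1. Scn7a alone went from a mean of 285 CPM in PBS to 207 CPM in PM. The median log2 fold of the 69 tested members was -0.03, so the sum does not show a fall shared by the members.

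No gene of the 19 marker lists for cell types was called in either direction. Fibroblast markers summed to 2093 and 2033 CPM in PBS and to 1980, 1933 and 1356 CPM in PM, with 3 of 8 below PBS in every PM library, where 16.1% of all tested genes were, and none above. Pdgfra, a receptor of alveolar fibroblasts, was at 170.1 and 160.03 CPM in PBS and at 97.6, 79.7 and 110.2 CPM in PM (edgeR, Benjamini-Hochberg adjusted p = 0.0525). Alveolar type 1 markers summed to 6008 and 6061 CPM in PBS and to 4709, 4589 and 5110 CPM in PM, with all 6 below PBS in every PM library, again against 16.1%. Endothelial markers were at 1746 and 1947 CPM in PBS and at 1620, 1355 and 1645 CPM in PM, with 4 of 8 below (against 16.1%), while Car4 and Vwf had positive folds and overlapping groups. Of 10 neuronal markers 4 were tested, Stmn2, Uchl1, Rbfox3 and Elavl4, and they summed with the rest to 81.7 and 80.6 CPM in PBS and to 104, 62.2 and 92.8 CPM in PM. Their folds had both signs: Uchl1 was above PBS in every PM library (log2 fold 1.25) and Stmn2 below (-0.37). Elavl4 (0.69) and Rbfox3 (-0.56) overlapped between groups. Rbfox3 was at 4.98 and 7.04 CPM in PBS and at 1.75, 1.58 and 8.83 CPM in PM. Snap25 was at 0 in 4 of 5 libraries and Tubb3 at 0 in both PBS libraries, and of the glial markers Cdh19 was at 0 in all. The part of any of these in the Scn3a, Scn7a, Cacna1d and Kcnk13 values was not tested.

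Genes that work with these channels gave no call either. Of 80 genes in 6 lists of partner channels, pumps and subunits, 57 were tested; none was called by edgeR, while 10 had an unadjusted p below 0.05 (4 with higher levels, where 7.26% of all tested genes were, and 6 with lower levels, against 6.05%), and their median log2 fold was 0.06. In the sodium-potassium pump list, Fxyd1 (phospholemman, a pump regulator) was at 126 and 114 CPM in PBS and at 94.3, 90.7 and 75.7 CPM in PM. Its log2 fold was -0.46 ± 0.13 SE, at a Benjamini-Hochberg adjusted p of 0.145 (edgeR). In the list of mechanosensitive, polycystin and endolysosomal channels, Pkd2 (polycystin-2) was at 86.7 and 91.4 CPM in PBS and at 65.8, 64.1 and 70.7 CPM in PM. The log2 fold was -0.41 ± 0.12 SE and edgeR gave a Benjamini-Hochberg adjusted p of 0.151. The members with the smallest p of the other lists were Slc8a1, the sodium-calcium exchanger (log2 fold -0.51 ± 0.20 SE), and Itpr1, a calcium release channel (-0.26 ± 0.12 SE). From the remaining lists these were Hcn2, a pacemaker channel (0.24 ± 0.64 SE), and Stac2, which binds L-type channels (0.85 ± 0.38 SE).

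**Figure D5:**
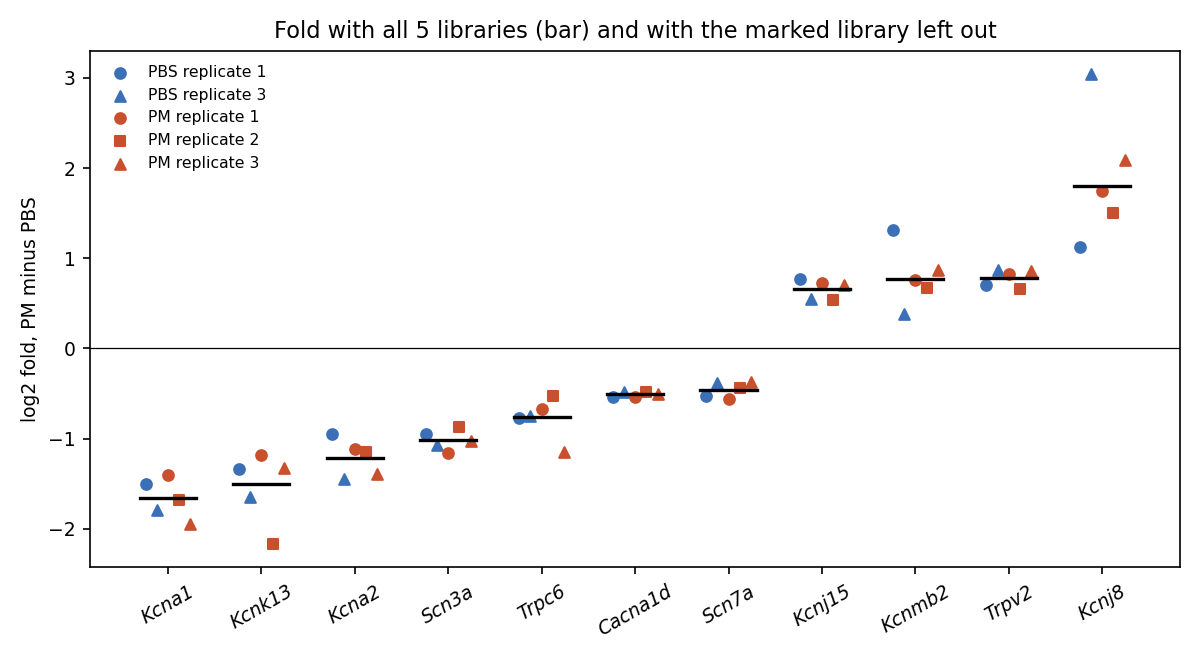
For the 11 channel genes with an unadjusted p below 0.05 and no overlap between groups, the bar gives the log2 fold from all 5 distinct libraries and each symbol the fold with the library of that colour and shape left out. All folds keep their sign, and Kcnj8, Kcnmb2 and Kcnk13 move most.

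The sequence before the start site is shown for 4 of the 11 genes above, both with lower and with higher levels in PM, because their promoters differ in CpG content. Promoter sequences are from RefSeq on GRCm38.p6; 72 of the 93 members and 9 of the 11 matched, and neither Scn3a nor Kcna1 is shown. Each line gives the 250 bases before the start, 5′ to 3′ on the gene's strand, with CpG dinucleotides in capitals. The windows are chr2:66784911-66785160 (minus strand) for Scn7a, chr9:8543892-8544141 (plus) for Trpc6, chr14:30353487-30353736 (minus, the inner of its 2 starts) for Cacna1d and chr16:95257308-95257557 (plus) for Kcnj15.
Scn7a: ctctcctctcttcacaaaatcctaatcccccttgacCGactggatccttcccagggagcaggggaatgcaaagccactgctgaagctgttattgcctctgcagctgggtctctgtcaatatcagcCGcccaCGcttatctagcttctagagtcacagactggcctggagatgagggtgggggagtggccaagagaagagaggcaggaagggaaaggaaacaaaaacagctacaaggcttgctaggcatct
Trpc6: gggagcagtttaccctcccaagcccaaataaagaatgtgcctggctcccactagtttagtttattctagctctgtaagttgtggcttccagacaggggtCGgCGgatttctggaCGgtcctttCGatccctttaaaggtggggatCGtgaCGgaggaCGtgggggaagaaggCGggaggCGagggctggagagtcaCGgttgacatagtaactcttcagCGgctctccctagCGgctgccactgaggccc
Cacna1d: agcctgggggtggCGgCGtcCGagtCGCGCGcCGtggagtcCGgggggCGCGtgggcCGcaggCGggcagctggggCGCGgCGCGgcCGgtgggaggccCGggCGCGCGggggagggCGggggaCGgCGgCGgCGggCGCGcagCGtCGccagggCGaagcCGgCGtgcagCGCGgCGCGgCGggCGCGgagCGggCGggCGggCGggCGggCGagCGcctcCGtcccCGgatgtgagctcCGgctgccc
Kcnj15: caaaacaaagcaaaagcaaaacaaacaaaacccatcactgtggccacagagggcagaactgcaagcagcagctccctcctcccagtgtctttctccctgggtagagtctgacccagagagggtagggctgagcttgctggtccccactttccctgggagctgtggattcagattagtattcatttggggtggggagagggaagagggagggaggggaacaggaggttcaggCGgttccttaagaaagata

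Kcnj15 had 1 CpG in its window, Scn7a 3, Trpc6 12 and the inner start of Cacna1d 50, where the median of 32851 such windows was 6; 99.9% of windows had fewer CpG than that of Cacna1d. Over the 101 windows of channel genes the median was 8, and over the 12 windows of the 9 matched genes of the 11 it was 5.5. The GC box GGGCGG, searched on both strands, was in 41.6% of channel gene windows and in 32.7% of all windows. In the 12 windows of those 9 genes its share was 16.7%. The GC box matched once in the Scn7a window, 5 times in that of Cacna1d and not in those of Trpc6 and Kcnj15. The TATA box letters TATAAA, searched likewise, were in 4.95% of channel gene windows and in 12.4% of all, and in none of the 4 windows printed. The outer start of Cacna1d, which lies within an annotated exon and is not printed, differed from the inner start: its window had 2 CpG, 3 TATAAA matches and no GC box. These matches describe the letters only.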

How the data were processed

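Lung RNA was sequenced from libraries made, per the labels' protocols, with a SENSE mRNA-Seq kit. TopHat, Cufflinks and mm10 are named in the submitters' processing notes; which program did the counting, on what annotation and with which strand setting is not given in the sources used here. Each deposited table holds whole-number counts for gene symbols, not normalized. A line without name or value (1 in each of the identical PBS tables, 0% of counts) was left out, and of entries sharing a symbol the one with the highest total was kept (44 set aside). Identical PBS tables were counted once. Counts were fitted over all genes with edgeR 4.0.16 in R 4.3.3: filterByExpr, TMM, robust quasi-likelihood test, two-sided, no covariates, Benjamini-Hochberg adjustment over 14057 genes. Standard errors were derived as the log2 fold over the square root of its F statistic. Exon lengths and overlaps came from GENCODE M21 (all 93 members matched; exons of 32 overlap another gene). DESeq2 1.42.0 and limma 3.58.1 were alternatives, with other scalings, filters, a replicate block and libraries left out. Members and lists were chosen with earlier results of these data known. Named genes were those called, up to 10 per direction with an unadjusted p below 0.05 and no overlap between groups, the member of each class with the highest level per kilobase, and the partner of smallest p in each list; others named were chosen after their values were seen. Results for some members are not reported here.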

Additional observations from a re-analysis of the deposited data

How the results depend on the processing

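The number of channel genes called lower was 0 by limma-voom and by edgeR without robust estimation. It was 2 with no filter beyond 1 count, by DESeq2 and at an adjusted p below 0.10. On all 6 tables as deposited (the repeated PBS table counted again) it was 3, and with a PM library left out 0 to 3. The number called higher was 1 with no filter beyond 1 count, by DESeq2, with the replicate block and at an adjusted p below 0.10. On all 6 tables it was 2, and with a PM library left out 0 to 1. Calls over all tested genes moved as well. They were 32 of 14057 in the edgeR fit of all 5 libraries, 17 by limma-voom and 23 without robust estimation. They were 275 of 18027 with no filter beyond 1 count, 360 of 18027 by DESeq2 and 635 of 13823 on all 6 tables. Without PM replicate 1, 2 or 3 they were 12 of 13837, 106 of 13912 and 427 of 13949, in that order. At an adjusted p below 0.10 this number was not computed. The median log2 fold was 0.0385 with a filter of at least 10 counts in all, 0.0569 with no filter beyond 1 count and 0.0649 by DESeq2, settings that add sparse genes, and -0.05 to 0.02 with a library left out. The log2 fold of Scn3a was -1.02 by limma-voom (adjusted p = 0.0864) and -1.01 by edgeR without robust estimation (0.0622). Both missed the threshold of 0.05 but lay below 0.10. With a library left out the fold was -1.15 to -0.87. A lone PBS library was assumed to vary like the PM group. Without either PBS library or without PM replicate 1, 19 tested channel genes lay above PBS in every PM library, and 22 below without PBS replicate 1. With fewer libraries any gene is less likely to overlap between groups. The share of all tested genes without overlap was not computed for these settings, so these counts show nothing particular to channel genes.

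Replicate numbers are shared between groups, but they were not taken as pairs. The deviations of same-numbered libraries had correlations of -0.03 and 0.06. With 2 PBS libraries the deviation of 1 mirrors that of the other, so these correlations cannot settle whether libraries were paired. With the number as a replicate block 1 channel gene was called higher, Kcnj15, and 1 lower, Scn3a, where 353 of 14057 tested genes were called. Block 2 then holds a PM library alone, so PM replicate 2 adds nothing to the fold. For Scn3a the log2 fold was -0.873 with the block and -0.869 without PM replicate 2. On all 6 tables, added after seeing the data, the block gave 1 higher and 4 lower, where 827 of 13823 tested genes were called.

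Signs turned for genes near 0. Trpm7 had a log2 fold of -0.0462 with library totals alone, -0.0017 and -0.0024 with the 2 looser filters, -0.0087 with the replicate block and -0.0625 to 0.0671 with a library left out. With a library left out Trpc4ap ranged from -0.0916 to 0.322, Cacna2d1 from -0.0476 to 0.358 and Cacnb3 from -0.16 to 0.60. The cause was not tested. Depth limits the 24 members with 52 counts or fewer in all.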

Other observations

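Kcnj11 and Abcc8, which encode the pore and the regulatory subunit of the ATP-sensitive potassium channel of pancreatic beta cells, were both highest in PM replicate 2. Kcnj11 had 8 and 2 counts in PBS and 1, 26 and 2 counts in PM replicates 1, 2 and 3. Abcc8 was at 0.695 and 0.370 CPM in PBS and at 0.117, 3.44 and 0.757 CPM in PM. Neither was tested, and both were chosen after their values were seen.

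Kcna3, the potassium channel of T cells, had 0 counts in PM replicate 2 against 10 to 19 in the other libraries. Cacna1e ran from 19 counts in PBS replicate 1 to 1 in PM replicate 3.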
